A study of Mus musculus with 6 samples.

Results

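Elastic fibre and microfibril genes are described here as the 10 rows of the count table that carry the symbols *Eln*, *Fbn1*, *Fbn2*, *Fbln1*, *Fbln2*, *Fbln5*, *Efemp1*, *Efemp2*, *Mfap5* and *Emilin1*, of 37384 symbols in all. Members were matched by symbol alone, from a list drawn up with earlier results of these data known. All 10 passed the filter on low counts and are among the 15674 genes tested. RNA was sequenced from adipocytes of inguinal subcutaneous fat of male mice at postnatal day 7, collected as the cells that float after collagenase digestion. Each of the 6 libraries held RNA pooled from 4 mice, with 3 libraries labelled L1L2-FF (floxed *Lats1* and *Lats2* alleles without Cre) and 3 labelled L1L2-AKO (the same floxed alleles with *Adipoq*-Cre). The floxed lines came on mixed backgrounds (C57BL/6-129, for *Lats1* also CD1), and the share of each strain in these pools is not given in the sources used here. The *Adipoq* promoter drives Cre in adipocytes. Other cells caught in the floating layer keep both genes unless they, or the cells they came from, expressed Cre. LATS1 and LATS2 are the kinases of the Hippo pathway that hold back the transcriptional co-activators YAP and TAZ, and the comparison asks what their loss in fat cells does to gene expression.

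Elastic fibres give tissue its recoil. They have a core of crosslinked elastin, the product of *Eln*, deposited on a scaffold of microfibrils built from the fibrillins, and the fibulins link tropoelastin, fibrillin and the crosslinking enzymes during assembly. In adipose tissue, fat cells sit in a matrix of basement membrane and interstitial fibres, which fibroblasts, preadipocytes and vessel wall cells also produce.

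The 3 short fibulins were higher in L1L2-AKO-labelled libraries and the other 7 members did not pass the test in either direction. *Efemp1* (fibulin-3) rose 18.6-fold, *Fbln5* (fibulin-5) 7.78-fold and *Efemp2* (fibulin-4) 2.15-fold, while elastin, the fibrillins, the long fibulins, *Mfap5* and *Emilin1* had fold values from 0.823 to 1.35. Thus 3 of 10 members were called higher, where 9.28% of all tested genes were, and 0 of 10 were called lower, where 7.18% were. In either direction 16.5% of tested genes were called, by the quasi-likelihood test of edgeR with Benjamini-Hochberg adjusted p under 0.05. The same 3 members were those whose values did not overlap between the genotypes, a state met by 36.4% of tested genes, so this count of 3 of 10 is close to the background. The median log2 fold change was 0.23 over the members and -0.02 over all tested genes.

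**Figure D1:**
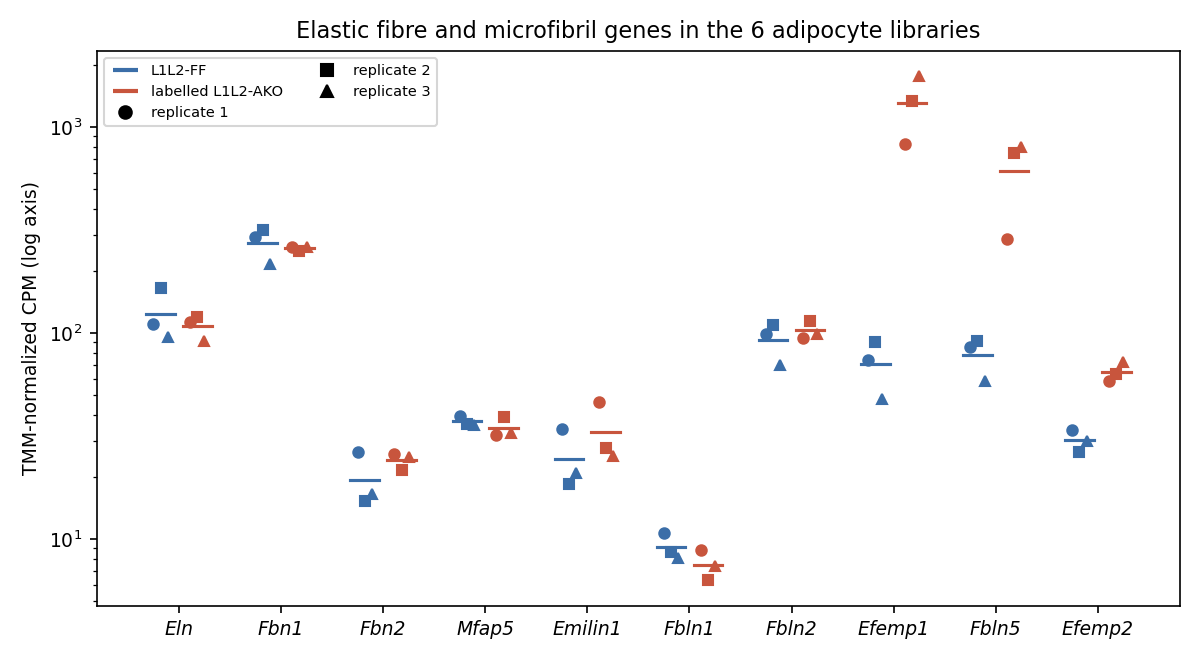
Level of each member in each of the 6 libraries, in CPM (counts scaled to a common library size) on a log axis, with points for libraries and a bar for each genotype's mean. The L1L2-AKO points lie above every L1L2-FF point for *Efemp1*, *Fbln5* and *Efemp2*, and the points of the other 7 members overlap.

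The libraries held 30548473 to 32107917 counts each, and the first principal component, with 61.8% of the variance, separated the genotypes. *Lats1* fell from 82.9 ± 9.90 to 40.2 ± 1.16 CPM (SD, n = 3; log2 fold change -1.04, SE 0.118, adjusted p = 0.00131), but *Lats2* was higher under the L1L2-AKO label, 119 ± 20.6 against 76.4 ± 8.68 CPM (log2 fold change 0.64, SE 0.156, adjusted p = 0.0278, lost without 1 library in 4 of 6 cases). The table gives 1 count per gene, and whether the reads came from the floxed exons was not tested, so directions below refer to libraries by their label. Adipocyte markers were present in all libraries, with summed levels of 19101 to 20999 CPM in L1L2-FF and 10682 to 12939 CPM in libraries labelled L1L2-AKO. In bulk RNA, fewer cells of a type and less RNA per cell cannot be told apart.

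The sequences just upstream of the 3 short fibulin genes are shown because these are the members that changed. Each is the 250 bases before an annotated RefSeq start (GRCm38.p6), written 5′ to 3′ on the strand of the gene, and capitals mark the only match to the AP-1 motif TGANTCA.
Efemp1, chr11:28852955-28853204, plus strand: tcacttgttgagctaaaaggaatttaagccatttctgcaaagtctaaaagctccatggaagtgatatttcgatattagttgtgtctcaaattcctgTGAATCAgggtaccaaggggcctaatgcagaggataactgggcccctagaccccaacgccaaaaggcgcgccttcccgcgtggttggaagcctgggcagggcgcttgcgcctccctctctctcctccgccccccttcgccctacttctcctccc
Fbln5, chr12:101819120-101819369, minus strand: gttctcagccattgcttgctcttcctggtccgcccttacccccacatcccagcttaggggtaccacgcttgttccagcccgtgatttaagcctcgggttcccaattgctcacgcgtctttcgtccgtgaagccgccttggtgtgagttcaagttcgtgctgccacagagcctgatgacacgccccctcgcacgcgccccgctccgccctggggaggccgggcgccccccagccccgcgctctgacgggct
Efemp2, chr19:5473696-5473945, plus strand: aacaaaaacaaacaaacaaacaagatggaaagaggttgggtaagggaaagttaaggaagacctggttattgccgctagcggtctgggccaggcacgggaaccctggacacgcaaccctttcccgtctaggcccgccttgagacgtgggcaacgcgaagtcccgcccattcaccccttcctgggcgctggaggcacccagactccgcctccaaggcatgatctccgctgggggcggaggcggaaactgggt
The *Efemp1* window had a GC content of 53.6% and 10 CpG dinucleotides, against 65.2% and 21 for *Fbln5* and 59.2% and 15 for *Efemp2*. Both strands were searched for the AP-1 motif, for GGAATG (bound by TEAD factors, the DNA partners of YAP and TAZ), for the SMAD palindrome GTCTAGAC and for TATAAA. Of the members, 7 had a RefSeq promoter entry, with 11 windows in all, and the AP-1 match TGAATCA at position -154 of *Efemp1* was the single match of any of the 4 motifs to the short fibulin windows printed here. None of the 11 windows held GGAATG, GTCTAGAC or TATAAA. Over 32817 windows of this length, 12.6% held GGAATG, 6.75% the AP-1 motif, 0.168% the SMAD palindrome and 12.4% TATAAA, so these letters in a window are a description and not a site of binding.

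*Efemp1* lies on chromosome 11 of mm10, plus strand, from 28853204 to 28926743. Its protein, fibulin-3, is a secreted matrix glycoprotein that binds the metalloprotease inhibitor TIMP3. The level of *Efemp1* was 74.2, 90.2 and 47.7 CPM in L1L2-FF replicates 1 to 3, and 831, 1343 and 1770 CPM in those labelled L1L2-AKO. The lowest L1L2-AKO value was thus far above the highest L1L2-FF value, and the means were 70.7 ± 21.5 and 1315 ± 470 CPM (SD, n = 3). The log2 fold change was 4.22 (SE 0.358, 95% confidence interval 3.39 to 5.04, adjusted p = 0.000459, edgeR), the rise of rank 57 among all tested genes. By mean CPM, *Efemp1* moved from rank 2761 to rank 61 of the tested genes.

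*Fbln5*, on the minus strand of chromosome 12 from 101746565 to 101819055, encodes fibulin-5, which brings tropoelastin to microfibrils and binds cell surface integrins and lysyl oxidase-like enzymes. Its level was 85.5, 91.0 and 58.3 CPM in L1L2-FF and 287, 745 and 796 CPM in L1L2-AKO-labelled libraries. No value overlapped, but replicate 1 of L1L2-AKO was well below the other two, with 2.78-fold between the highest and lowest library of that genotype. The means of 78.3 ± 17.5 and 609 ± 281 CPM (SD, n = 3) gave a log2 fold change of 2.96 (SE 0.388, 95% confidence interval 2.07 to 3.85, adjusted p = 0.00229), the rise of rank 149. Without that library the log2 fold change was 3.30.

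*Efemp2*, on the plus strand of chromosome 19 from 5473954 to 5482517, encodes fibulin-4, which binds tropoelastin and lysyl oxidase and is needed for elastic fibre formation. It had 33.7, 26.5 and 30.0 CPM in L1L2-FF and 58.4, 63.2 and 72.4 CPM under the L1L2-AKO label. Libraries of each genotype lay close together, and the groups did not overlap. The means were 30.1 ± 3.59 and 64.7 ± 7.15 CPM (SD, n = 3), a log2 fold change of 1.11 (SE 0.135, 95% confidence interval 0.80 to 1.42, adjusted p = 0.00173). Tested against a change of 2-fold instead of no change, this call was lost. *Efemp2* shares 2.92% of its 50-base exon stretches with the overlapping gene *Mus81*, whose own level was 16.2 and 16.1 CPM in the 2 genotypes (log2 fold change -0.01, adjusted p = 0.981).

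The core protein did not follow the short fibulins. *Eln* (tropoelastin, chromosome 5, minus strand, 134702593 to 134747323) had 111, 165 and 95.9 CPM in L1L2-FF and 113, 119 and 91.9 CPM in L1L2-AKO-labelled libraries. The ranges overlapped, with the highest value of all 6 in L1L2-FF replicate 2. The means were 124 ± 36.3 and 108 ± 14.4 CPM (SD, n = 3), a log2 difference of -0.20 (SE 0.209, adjusted p = 0.588) whose 95% confidence interval ran from -0.68 to 0.29. This interval holds no change and also a moderate loss, but not a rise of the size seen for *Efemp2*. Without L1L2-FF replicate 2 the log2 difference turned to 0.07.

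Fibrillin-1 and fibrillin-2 form the microfibril backbone, fibrillin-2 mainly in development. *Fbn1* (chromosome 2, minus strand, 125300594 to 125507993) had 292, 315 and 216 CPM in L1L2-FF and 262, 251 and 260 CPM in those labelled L1L2-AKO. All L1L2-AKO values fell inside the L1L2-FF range. The log2 difference was -0.09 (SE 0.158, 95% confidence interval -0.45 to 0.27, adjusted p = 0.755), and it turned to 0.02 without L1L2-FF replicate 2. *Fbn1* shares 19.7% of its 50-base exon stretches with the predicted gene *Gm9913*, which drew 0 to 5 counts in each library against 6699 to 10186 for *Fbn1*.

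The level of *Fbn2* (chromosome 18, minus strand, 58008623 to 58210487) was 26.4, 15.2 and 16.5 CPM in L1L2-FF and 25.8, 21.7 and 24.9 CPM under the L1L2-AKO label. Replicate 1 of L1L2-FF reached the level of the other genotype, so the groups overlapped. The means of 19.4 ± 6.09 and 24.1 ± 2.14 CPM (SD, n = 3) gave a log2 difference of 0.32 (SE 0.213, 95% confidence interval -0.17 to 0.81, adjusted p = 0.368).

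*Mfap5* (chromosome 6, plus strand, 122505845 to 122529290) encodes a small glycoprotein that decorates fibrillin microfibrils. It had 39.7, 36.2 and 35.8 CPM in L1L2-FF and 32.0, 39.1 and 32.6 CPM in L1L2-AKO-labelled libraries. Its highest L1L2-FF library was 1.11-fold the lowest, the smallest spread of the 10 members in that genotype. The values of the genotypes overlapped, with a log2 difference of -0.11 (SE 0.121, 95% confidence interval -0.38 to 0.17, adjusted p = 0.611).

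*Emilin1* (chromosome 5, plus strand, 30913402 to 30921277) encodes a glycoprotein at the interface of elastin and microfibrils. It had 34.2, 18.5 and 20.9 CPM in L1L2-FF and 46.4, 27.8 and 25.4 CPM in L1L2-AKO-labelled libraries. Replicate 1 was the highest library of each genotype and the ranges overlapped. The log2 difference of 0.44 had the widest interval of the members not called (SE 0.294, 95% confidence interval -0.24 to 1.11, adjusted p = 0.367).

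The long fibulins, which bind fibronectin and basement membrane proteins as well as elastin, did not move with the short ones. *Fbln1* (chromosome 15, plus strand, 85205949 to 85286535) was the least counted member, with 198 to 335 counts per library. Its level was 10.7, 8.60 and 8.06 CPM in L1L2-FF and 8.81, 6.28 and 7.40 CPM under the L1L2-AKO label, which overlapped through replicate 1 of the latter (log2 difference -0.28, SE 0.195, 95% confidence interval -0.73 to 0.17, adjusted p = 0.382). *Fbln2* (chromosome 6, plus strand, 91212455 to 91272540) had 99.1, 109 and 69.5 CPM in L1L2-FF and 94.8, 114 and 99.2 CPM in those labelled L1L2-AKO. Again the ranges overlapped, and the log2 difference was 0.15 (SE 0.176, 95% confidence interval -0.25 to 0.56, adjusted p = 0.621). It turned to -0.02 without L1L2-FF replicate 3.

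**Figure D2:**
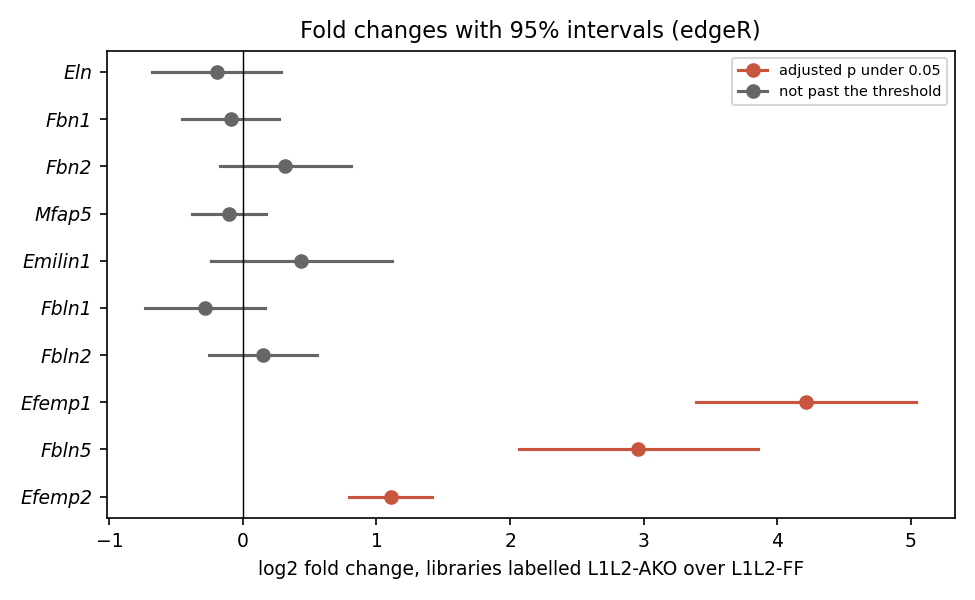
Log2 fold change of each member (L1L2-AKO label over L1L2-FF) with its 95% confidence interval from the edgeR fit. The intervals of *Efemp1* (3.39 to 5.04), *Fbln5* (2.07 to 3.85) and *Efemp2* (0.80 to 1.42) lie above 0 and those of the other 7 members include 0.

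Levels of different genes were compared only after division by exon length, as CPM per kb of exon. On this scale the highest mean level in L1L2-FF was that of *Efemp1* (34.7 CPM per kb), followed by *Fbn1* (22.6), *Eln* (15.3), *Fbln2* (14.5), *Fbln5* (11.3), *Mfap5* (10.4), *Efemp2* (7.94), *Emilin1* (4.97), *Fbln1* (2.09) and *Fbn2* (1.47). Of neighbours in this order, the library ranges were separate only between *Mfap5* and *Efemp2*, *Efemp2* and *Emilin1*, and *Emilin1* and *Fbln1*. Under the L1L2-AKO label *Efemp1* stood at 645 CPM per kb, *Fbln5* at 88.2, *Fbn1* at 21.2 and *Efemp2* at 17.1, with separate ranges between these neighbours, while *Efemp2* and *Fbln2* (16.1 CPM per kb) overlapped. On this scale *Efemp1* thus led in both genotypes. The length used is the union of all annotated exons, which was 2.04 kb for *Efemp1*. It was 8.10 kb for *Eln*, 6.91 kb for *Fbln5* and 3.59 kb for *Mfap5*. The order of the genes rests on these lengths, and lengths of single transcripts were not tested.

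Added up per kb, the 10 members made 133, 145 and 97.6 CPM per kb in L1L2-FF and 538, 857 and 1069 in L1L2-AKO-labelled libraries, a ratio of means of 6.55. The sum of the 7 members not called was 71.3 ± 11.9 and 70.6 ± 3.89 CPM per kb in the 2 genotypes (SD, n = 3), a ratio of 0.990. The 3 short fibulins held 42.8 ± 1.91% of the summed level in L1L2-FF and 90.6 ± 3.75% under the L1L2-AKO label, with *Efemp1* alone going from 27.3 ± 3.29% to 78.0 ± 2.84%. The share of *Fbn1* was 18.1 ± 0.154% in L1L2-FF and 2.81 ± 1.06% in L1L2-AKO-labelled libraries. The level of *Fbn1* itself did not pass the test, so its smaller share came with the larger sum. Since the 7 were grouped by having missed the threshold, these sums are a description. The sums and shares also rest on the exon lengths used.

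**Figure D3:**
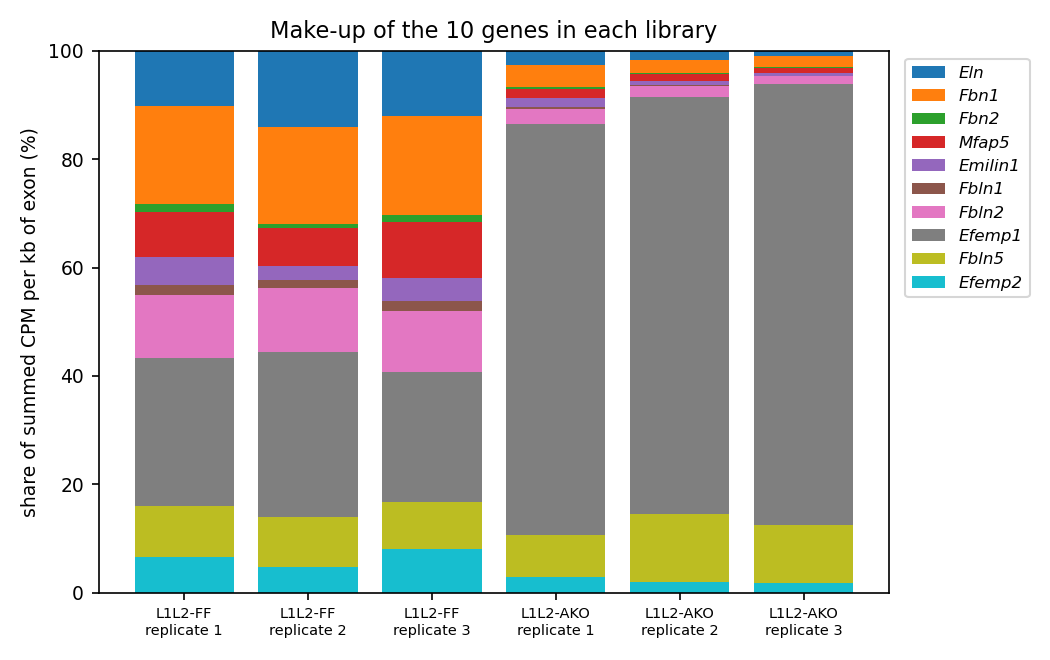
Share of the summed level of the 10 members (CPM per kb of exon) held by each gene, as 1 stacked bar per library. The short fibulins fill 40.7 to 44.5% of the bars in L1L2-FF and 86.5 to 93.8% in L1L2-AKO-labelled libraries.

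Ratios between members within a library do not depend on its scaling, and 6 were compared. *Efemp1* to *Efemp2* was 2.20, 3.40 and 1.59 in L1L2-FF and 14.2, 21.3 and 24.4 under the L1L2-AKO label, 8.53-fold higher by the means of the log2 ratios. *Fbln5* to *Efemp2* was 2.54, 3.44 and 1.94 against 4.91, 11.8 and 11.0, 3.35-fold higher. These were the 2 ratios without overlap, each with p = 0.1 in a two-sided exact permutation test (0.3 after Benjamini-Hochberg adjustment over the 6), which is the smallest p that 3 against 3 libraries allow. The mean log2 ratio of *Efemp1* to *Efemp2* was 1.19 ± 0.551 in L1L2-FF and 4.28 ± 0.404 in L1L2-AKO-labelled libraries (SD, n = 3), a difference larger than the spread between replicates, although this permutation test cannot take it past the threshold.

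The other 4 ratios overlapped between the genotypes. *Fbn2* to *Fbn1*, the balance of the fibrillins, was 0.0903, 0.0483 and 0.0766 in L1L2-FF and 0.0983, 0.0864 and 0.0957 in those labelled L1L2-AKO (exact permutation p = 0.2). *Fbln2* to *Fbln1* was 9.27, 12.7 and 8.63 against 10.8, 18.2 and 13.4 (exact permutation p = 0.2). *Eln* to *Fbn1*, the core over the backbone, was 0.379, 0.524 and 0.444 against 0.432, 0.475 and 0.353 (exact permutation p = 0.6), and *Mfap5* to *Fbn1* was 0.136, 0.115 and 0.166 against 0.122, 0.156 and 0.125 (exact permutation p = 0.8). After adjustment over the 6 ratios these p-values were 0.3, 0.3, 0.72 and 0.8.

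**Figure D4:**
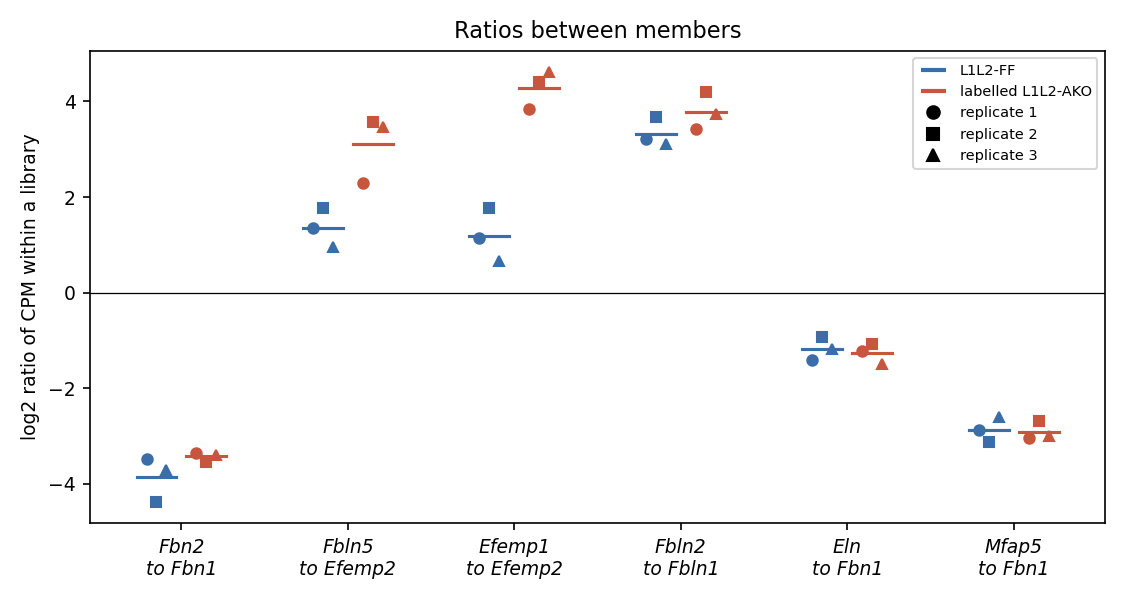
The 6 ratios between members' CPM in each library, as log2 values, with 1 point per library and a bar for each genotype's mean. The L1L2-AKO points of *Efemp1* to *Efemp2* and *Fbln5* to *Efemp2* lie above all L1L2-FF points, and the other 4 ratios overlap.

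Members differed in how they ordered the libraries of 1 genotype. In L1L2-FF, replicate 2 was the highest and replicate 3 the lowest for *Eln*, *Fbn1*, *Fbln2*, *Fbln5* and *Efemp1*, while replicate 1 was the highest for *Fbn2*, *Fbln1*, *Efemp2*, *Mfap5* and *Emilin1*. Under the L1L2-AKO label, replicate 1 was the lowest for *Fbln2*, *Fbln5*, *Efemp1*, *Efemp2* and *Mfap5* and the highest for *Fbn1*, *Fbn2*, *Fbln1* and *Emilin1*. All 3 short fibulins were thus lowest in the same L1L2-AKO library.

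The enzymes and partners that assemble elastic fibres were read from the same fit. Of 26 assembly and crosslinking genes tested, 8 were called higher and 3 lower, at a median log2 fold change of 0.12. Over all tested genes 9.28% were called higher and 7.18% lower, at a median of -0.02. *Lox* (lysyl oxidase, which crosslinks elastin and collagen) had 126, 140 and 88.1 CPM in L1L2-FF and 555, 960 and 1312 CPM in L1L2-AKO-labelled libraries, in the same order of libraries as *Efemp1* there (log2 fold change 3.00, SE 0.333, adjusted p = 0.00125). *Loxl4*, a relative of it, rose from 1.10 ± 0.476 to 11.9 ± 3.20 CPM (SD, n = 3; log2 fold change 3.43, adjusted p = 0.00087), *Emilin2* from 36.7 ± 2.77 to 156 ± 32.0 CPM (2.09, adjusted p = 0.000398) and *Adamtsl2*, which binds fibrillin-1 and latent TGF-β binding proteins, from 0.538 ± 0.053 to 2.04 ± 0.182 CPM (1.91, adjusted p = 0.00422). The other genes called higher, named after their values were seen, were *Ltbp2* (log2 fold change 1.44), *Loxl2* (0.88), *Fbln7* (1.55) and *Mmrn1* (1.63). The calls of *Fbln7* and *Mmrn1* were each lost in 4 of 6 cases when 1 library was left out, and that of *Loxl2* in 5, while *Lox*, *Loxl4*, *Emilin2*, *Adamtsl2* and *Ltbp2* were called in all 6.

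Lower calls in this list were *Ltbp3* (427 ± 35.1 to 264 ± 43.7 CPM, log2 fold change -0.69, adjusted p = 0.0202) and, named after their values were seen, *Mfap4* (56.1 ± 10.7 to 22.5 ± 6.61 CPM, -1.32, adjusted p = 0.00738) and *Loxl1* (149 ± 28.1 to 103 ± 2.62 CPM, -0.53, adjusted p = 0.0482). *Ltbp3* holds latent TGF-β in the matrix, *Mfap4* encodes an elastin- and fibrillin-binding glycoprotein, and *Loxl1* the lysyl oxidase relative that fibulin-5 brings to elastin. *Loxl1* was thus lower where its partner *Fbln5* was higher, although its call was lost in 5 of 6 cases when 1 library was left out, and that of *Ltbp3* in 3. *Mfap2*, the relative of *Mfap5* and also picked out afterwards, did not pass the test (log2 fold change -0.27, adjusted p = 0.445).

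Of 15 elastin-degrading proteases and inhibitors tested, 7 were called higher and 0 lower, at a median log2 fold change of 0.73. The shares over all tested genes were 9.28% higher and 7.18% lower, at a median of -0.02. The proteases *Ctss* (13.4 ± 4.38 to 40.9 ± 1.63 CPM, log2 fold change 1.60, adjusted p = 0.00243), *Ctsk* (16.5 ± 3.12 to 42.2 ± 10.5 CPM, 1.36, adjusted p = 0.00512) and *Ctsl* (253 ± 26.9 to 470 ± 105 CPM, 0.89, adjusted p = 0.0161) are lysosomal cathepsins that can cleave elastin. *Timp2*, a metalloprotease inhibitor, rose from 98.1 ± 25.7 to 327 ± 81.4 CPM (log2 fold change 1.74, adjusted p = 0.00299), and, named after their values were seen, *Mmp14*, *Timp1* and *Timp3* were also higher. With 1 library left out, *Ctss*, *Ctsk* and *Timp2* were called in all 6 cases, but the call was lost in 2 for *Mmp14*, in 3 for *Ctsl* and in 4 each for *Timp1* and *Timp3*. The highest expressed of the 8 not called, the cathepsin inhibitor *Cst3*, had a log2 difference of 0.54 (adjusted p = 0.157). On the other side, and named after their values were seen, *Mmp2* (gelatinase A) had 64.1, 104 and 41.5 CPM in L1L2-FF and 38.8, 38.9 and 32.2 CPM under the L1L2-AKO label (log2 difference -0.93, adjusted p = 0.0662), and *Elane* (neutrophil elastase) had 0.894, 1.18 and 0.483 CPM against 0, 0.285 and 0.140 CPM (-2.57, adjusted p = 0.0619). Neither overlapped between the genotypes, a state met by 36.4% of tested genes, and *Elane* drew only 0 to 38 counts per library. The DESeq2 Wald test called both lower. Macrophages make cathepsins too, and all 9 macrophage markers tested were higher, with summed levels of 249 to 494 CPM in L1L2-FF and 935 to 1044 CPM under the L1L2-AKO label. Their part in the cathepsin levels was not tested.

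Among 11 receptors and elastin-binding proteins tested, 1 was called higher and 1 lower (median log2 fold change -0.04). This is close to the 9.28% and 7.18% of all tested genes. *Itgb1*, the common integrin β chain, went from 727 ± 13.3 to 1040 ± 79.6 CPM (log2 fold change 0.52, adjusted p = 0.0389), and *Itgb8*, a chain of a TGF-β-activating integrin, from 12.9 ± 8.01 to 3.23 ± 1.75 CPM (-2.0, adjusted p = 0.034). The first call was lost whichever library was left out, and the second in 4 of 6 cases.

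**Figure D5:**
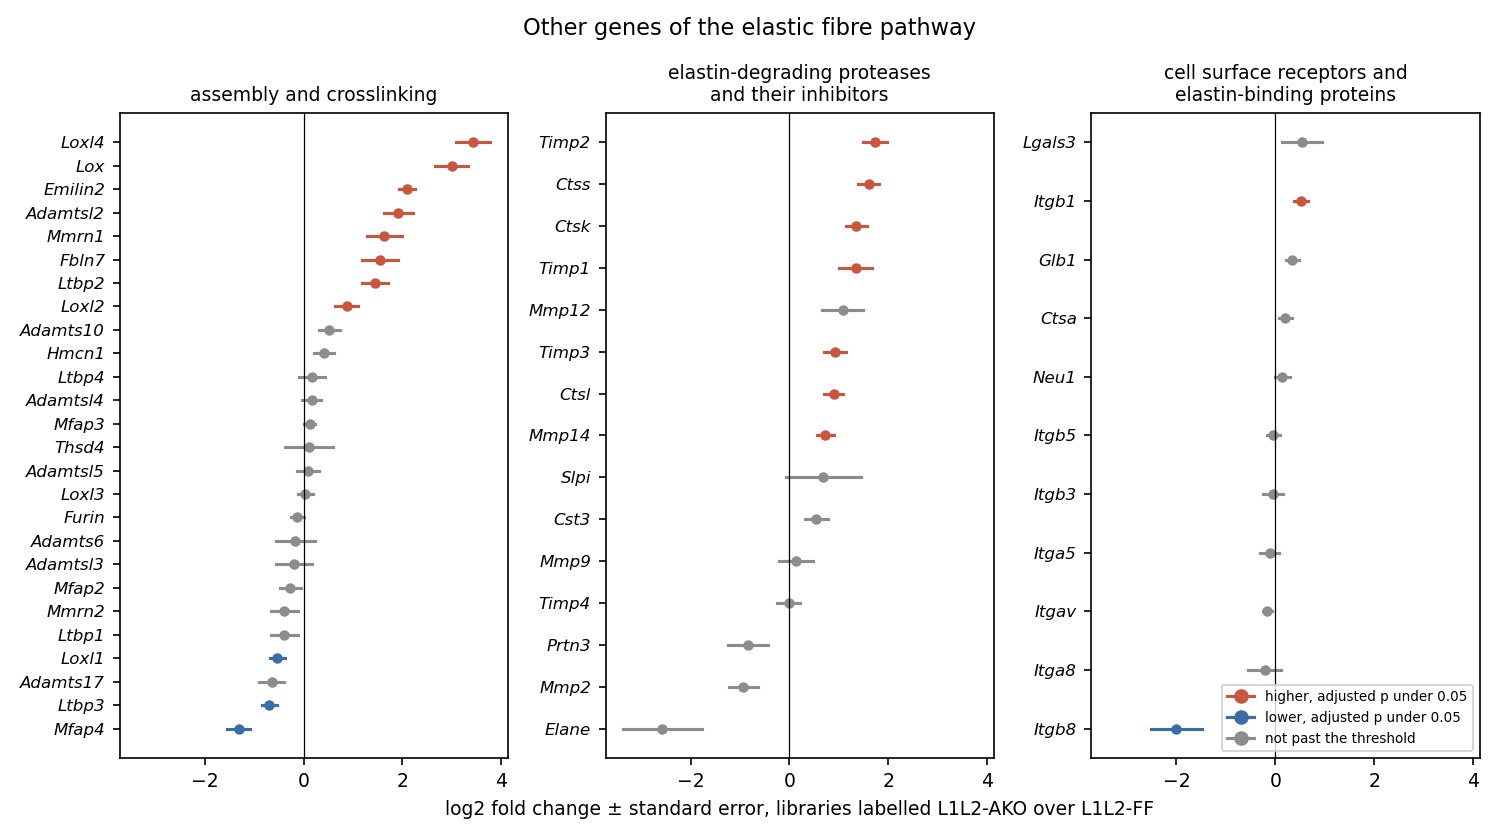
Log2 fold change (L1L2-AKO label over L1L2-FF) of every tested gene in the 3 pathway lists, with bars of 1 SE and colour for genes called at an adjusted p under 0.05 (red higher, blue lower, grey not called). The assembly, protease and receptor lists hold 8, 7 and 1 genes called higher and 3, 0 and 1 called lower. Over all tested genes 9.28% were called higher and 7.18% lower.

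Fibroblasts and vessel wall cells make elastic fibre proteins, so their markers are given beside the short fibulins. For the counts of markers called, the shares over all tested genes were 9.28% higher and 7.18% lower. None of 9 fibroblast and preadipocyte markers was called in either direction by edgeR, at a median log2 fold change of -0.48 and summed levels of 1943 to 2663 CPM in L1L2-FF and 1253 to 1925 CPM under the L1L2-AKO label. All 9 log2 differences were below 0, from -0.73 to -0.01. Most of these sums was *Col15a1*, with 1814, 1037 and 1945 CPM in L1L2-FF and 1313, 684 and 930 CPM in L1L2-AKO-labelled libraries. Summed mural and smooth muscle markers ran from 1113 to 1462 and from 1188 to 1447 CPM, with *Acta2*, *Tagln* and *Notch3* higher and *Rgs5* and *Cspg4* lower of 10. *Tagln*, a smooth muscle actin-binding protein, had 57.5, 212 and 188 CPM in L1L2-AKO-labelled libraries. It was lowest in replicate 1 like the short fibulins, as were *Acta2*, *Notch3* and *Pdgfrb*. *Rgs5* (314, 238 and 156 CPM), *Cspg4*, *Myh11*, *Cnn1*, *Kcnj8* and *Abcc9* were instead highest in replicate 1. The part of mural cells in the short fibulin levels was not tested. The 7 markers of DPP4-type progenitors and fascia fibroblasts summed to 205 to 242 and 341 to 421 CPM, at a median log2 fold change of -0.24. Of these, 2 were higher (*Sema3c* and *Anxa3*) and 3 lower (*Pi16*, *Cd55* and *Wnt2*). *Sema3c* alone went from 74.7 ± 25.5 to 228 ± 48.8 CPM. *Dpp4* itself had 10.9 ± 4.31 and 11.7 ± 3.20 CPM (log2 difference 0.09, adjusted p = 0.881, edgeR). Mesothelial markers summed to 4.02 to 5.16 and 4.04 to 6.49 CPM (2 of 3 tested higher). Of these, *Wt1* had 0 counts in every L1L2-FF library and 27, 41 and 50 in L1L2-AKO-labelled ones (adjusted p = 0.00307), *Krt19* went from 0.337 ± 0.182 to 1.60 ± 0.507 CPM (adjusted p = 0.0211, lost without 1 library in 3 of 6 cases), and *Lrrn4* had 3.97 and 2.01 CPM (adjusted p = 0.0717). The defining *Msln* and *Upk3b*, below the filter, had 0 to 0.121 CPM and 0 to 0.905 CPM. *Wt1*, *Krt19* and *Lrrn4* were lowest in replicate 1 of the L1L2-AKO label, like the short fibulins. *Upk3b* (30, 6 and 0 counts in replicates 1 to 3) and *Msln* (4, 0 and 0 counts) were highest there. The part of mesothelial cells in the short fibulin levels was not tested. Replicate 1 was also the lowest L1L2-AKO-labelled library for the progenitor markers *Dpp4*, *Pi16*, *Cd55* and *Anxa3*, but not for the rest of that list. The same held for the adipocyte markers *Adipoq* (695, 901 and 1036 CPM) and *Cfd*, while the other adipocyte markers were lowest in replicate 2. This order was thus not particular to mural or mesothelial markers. Summed chondrocyte and tendon markers ran from 2.51 to 4.14 and from 2.58 to 4.82 CPM (0 of 3 called).

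Of 10 adipocyte markers 5 were lower and 0 higher, where 7.18% and 9.28% of all tested genes were. Among the lower was *Adipoq* itself (2108 ± 349 to 878 ± 171 CPM, SD, n = 3, log2 fold change -1.26, adjusted p = 0.0064). Endothelial markers summed to 1910 to 2561 and 1101 to 2406 CPM (1 of 8 lower), Schwann cell markers to 465 to 1200 and 148 to 375 CPM (4 of 5 lower) and skeletal muscle markers to 10.8 to 17.2 and 2.73 to 8.69 CPM (0 of 4 called). Which cells carried the added *Efemp1*, *Fbln5* and *Efemp2* transcripts was not tested.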

How the data were processed

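Floated adipocytes of inguinal fat were sequenced as 6 libraries, 3 per genotype, each a separate pool of 4 male mice. The authors aligned paired-end reads to mm10 with HISAT2 2.1.0 and used StringTie 1.3.5, and deposited raw read counts per gene symbol. The annotation, counting program and strand setting are not given in the sources used here, so that reads of overlapping genes may be shared. Every count column was used.

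From the deposited counts, genes were kept by the filterByExpr defaults of edgeR 4.0.16 in R 4.3.3 (minimum count 10, minimum total 15), scaled by TMM and tested two-sided with the edgeR quasi-likelihood F-test, p-values being adjusted (Benjamini-Hochberg) over 15674 genes at a threshold of 0.05. CPM use TMM-scaled library sizes. CPM per kb divide by the union of GENCODE exons in mm10. Of the 30548473 to 32107917 counts per library, members drew 198 or more each, and intervals given are for the spread between libraries. On simulated data with 15728 genes tested, the edgeR test recovered 99% of genes changed 4-fold and 62% of those changed 2-fold. In that simulation 200 genes were changed and every gene had the same dispersion. These shares therefore do not carry over to members with a wider spread between libraries.

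The members and all gene lists were chosen with earlier results of these data known. Named genes were all members, *Lats1*, *Lats2* and, in the pathway and cell type lists, up to 4 genes with the smallest adjusted p past the threshold and the 2 with the highest mean CPM, of which not all are given. Outside this rule and chosen after their values were seen were *Ltbp2*, *Loxl1*, *Loxl2*, *Fbln7*, *Mmrn1*, *Mfap2*, *Mfap4*, *Mmp2*, *Mmp14*, *Elane*, *Timp1*, *Timp3*, *Cspg4*, *Wnt2*, *Msln* and *Upk3b*. So were *Dpp4*, *Myh11*, *Cnn1*, *Kcnj8* and *Abcc9*. Alternatives were other scalings (DESeq2 1.42.0 size factors, upper quartile, library size alone), other filters, the DESeq2 Wald test, limma-voom (limma 3.58.1), the robust setting, a replicate block, a threshold of 2-fold (glmTreat) and each library left out. Promoter windows were read from RefSeq (GRCm38.p6).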

Additional observations from a re-analysis of the deposited data

How the results depend on the processing

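Under 16 alternatives *Efemp1* and *Fbln5* were called higher each time (log2 fold changes 3.95 to 4.46 and 2.73 to 3.30, highest adjusted p 0.00562 and 0.0164, both without L1L2-FF replicate 1), and *Efemp2* in 15 of 16 (1.02 to 1.19), all but the 2-fold threshold. The other 7 members were called in none, with the lowest adjusted p 0.0607 for *Emilin1*, under the replicate block. Leaving out 1 library gave log2 differences of -0.351 to 0.0654 for *Eln* and -0.239 to 0.0205 for *Fbn1* (above 0 without L1L2-FF replicate 2), of -0.0205 to 0.285 for *Fbln2* (below 0 without L1L2-FF replicate 3), and of -0.209 to 0.0259 for *Eln* to *Fbn1* and -0.168 to 0.0966 for *Mfap5* to *Fbn1*. The cause was not tested.

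Against a 2-fold threshold, 290 genes were called higher and 103 lower, 3 assembly genes higher and 0 lower, 0 proteases higher, and 0 receptors in either direction. Proteases called lower were 1 without a filter (*Mmp2*), 2 by the DESeq2 Wald test (*Mmp2* and *Elane*) and 1 with the replicate block (*Mmp2*), and by limma-voom receptors called lower were 0 and assembly genes 6 higher and 2 lower. Without 1 library, 777 to 1552 genes were called higher and 467 to 1293 lower (fewest higher without L1L2-FF replicate 1, fewest lower without L1L2-AKO replicate 2), with 5 to 8 assembly genes higher and 1 to 3 lower, 3 to 8 proteases higher and 0 to 2 lower, and 0 to 0 receptors higher and 0 to 1 lower. A fit that leaves out a library keeps at least 2 per genotype.

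Same-numbered libraries correlated by 0.188, 0.255 and -0.054 in their deviations from the genotype mean, and different-numbered ones by -0.324 to 0.211. With 3 libraries per genotype these values cannot decide whether the numbers are pairs. The sources used here do not say that equal numbers share a litter or day, so they were not taken as pairs. With the replicate block 2514 genes were called, against 2580, 3 members were higher and 0 lower, assembly genes went from 8 to 7 higher and from 3 to 2 lower, proteases from 7 to 6 higher, and receptors from 1 to 0 higher (*Loxl2*, *Loxl1*, *Timp1* and *Itgb1* lost). Each member drew 198 or more counts per library, but 3 libraries per genotype leave intervals as wide as -0.24 to 1.11 for *Emilin1*. Scaling moved the median of all genes by -0.03 to 0.01 on the log2 scale.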
